A study of Rattus norvegicus with 4 samples.

Results

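The genes described here encode enzymes that handle glutathione, thioredoxin and reactive oxygen in rat ovaries cultured with or without anti-Müllerian hormone (AMH). They were chosen by a rule on the gene symbol, with earlier results of these data known. The rule took glutathione transferases (Gst and Mgst), glutathione peroxidases (Gpx), peroxiredoxins (Prdx) with Srxn1, thioredoxins and proteins named after them (Txn), glutaredoxins (Glrx), superoxide dismutases (Sod), catalase (Cat), the enzymes of glutathione synthesis and reduction (Gclc, Gclm, Gss and Gsr), quinone reductases (Nqo) and haem oxygenases (Hmox). The rule found 81 probe sets for 70 genes, out of 14217 genes with a probe set of a single symbol, and each gene was read at its probe set with the highest mean over the 4 arrays. Of the 70 genes, 63 were bright enough to be tested, among 10621 tested genes in all. Another 2 probe sets list several symbols, at least 1 of which matches the rule, and are not named.

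Whole ovaries of female rats of postnatal day 4 were kept on floating filters for 10 days in serum-free medium with insulin, transferrin, albumin and ascorbic acid, the last itself an antioxidant, so that both groups received these agents. Control ovaries had no further treatment, and the other group received 50 ng/mL AMH, a secreted ligand related to TGF-beta. About 10 ovaries were pooled for each RNA sample, and 2 independent pools per group were hybridised to 1 Affymetrix array each. The series title frames the comparison as the action of AMH on the transition from primordial to primary follicle.

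Cells make superoxide mainly as a by-product of respiration. Superoxide dismutases turn it into hydrogen peroxide, which catalase, glutathione peroxidases and peroxiredoxins then reduce. Glutathione and thioredoxin supply electrons to the glutathione peroxidases and peroxiredoxins. Glutathione reductase and the thioredoxin reductases restore glutathione and thioredoxin with NADPH. Glutathione transferases join glutathione to reactive lipids and foreign compounds, and several of these genes are known targets of the transcription factor NRF2 (gene Nfe2l2), which binds antioxidant response elements. In the ovary these enzymes are known from oocytes, granulosa cells and steroid-making cells, which carry a high oxidative load.

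Several measured features moved with the groups. Over tested probe sets the 2 control arrays correlated at 0.974 and the 2 AMH arrays at 0.955, and pairs of unlike arrays at 0.877 to 0.902. GAPDH has control probe sets at both ends of its transcript, and dividing the 3′ by the 5′ signal, a measure that shortened RNA raises, gave 1.17 and 1.27 for control and 6.56 and 6.37 for AMH. The part of this ratio in the results was not tested. The chip identifiers of each group carry a string of their own, and thus whatever it stands for and the treatment cannot be told apart. Of the tested genes, 23.0% were called (adjusted p under 0.05, limma), 11.1% higher and 11.9% lower with AMH.

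Tissue markers were present: the summed intensity of 7 of 10 listed oocyte markers was 9815.3 to 10491.5 in control and 7400.4 to 7899.7 with AMH (4 of 7 tested lower), and that of 8 of 8 granulosa markers 2956.4 to 3213.0 and 4655.7 to 6719.4 (3 of 8 tested higher). For 9 of 9 stroma and theca markers the sums were 20628.7 to 21435.5 and 14373.0 to 19175.9. Of 8 tested, 1 was higher (Pdgfra) and 2 lower (Col1a1 and Col1a2). Cyp17a1, a theca gene too dim to be tested, read 1.7 and 3.6 in control and 16.8 and 18.7 with AMH. Red blood cell markers (10 of 16 with a probe set) summed to 1990.1 to 2162.6 in control and 660.8 to 664.6 with AMH (2 of 4 tested lower). Ahsp, Epb42 and Rhag were near 0 on all arrays. Macrophage and leukocyte markers (10 of 10) summed to 991.4 to 1192.9 and 712.7 to 1973.6, and Itgam was near 0. Sums for the endothelium (8 of 9 markers) were 1103.2 to 1166.0 and 1090.2 to 1370.0, for surface epithelium (6 of 7) 3139.3 to 3812.7 and 1652.6 to 3246.7 and for smooth muscle (7 of 7) 500.0 to 534.6 and 274.4 to 456.0, while those of 5 of 5 liver markers were 62.0 to 85.5 and 88.7 to 99.7. Of the liver markers Ttr was bright enough to be tested and was not called (31.7 and 26.5, then 46.8 and 33.6), and Alb read 1.8 to 18.5. The part of these markers in the results was not tested. In a whole ovary, fewer cells of a type and less RNA per cell cannot be told apart.

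Falls outnumbered rises among the antioxidant genes. With AMH 18 of the 63 tested genes were lower (28.6%, against 11.9% of all tested genes) and 7 were higher (11.1%, against 11.1%), and 38 were not called. The genes were chosen with earlier results of these data known, so these shares have no test. The median change was -0.08 on the log2(intensity + 16) scale, beside 0.07 over all tested genes. Each change is AMH minus control on this scale, which understates changes of dim probe sets, and it is given ± its standard error from limma (2 arrays in each group). The groups did not overlap for 44 of the 63 genes (64.6% of all tested genes did not), 19 with both AMH arrays above both control arrays and 25 with both below, beside 36.0% and 28.6% of all tested genes.

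The count of rises depended on the common scale of the arrays, which the deposited values set by an equal trimmed mean. Scaling to the 9 spiked hybridization controls moved the median of all tested genes to -0.35 and gave 1 antioxidant gene higher and 24 lower, beside 0.885% of all genes higher and 24.4% lower. Median centring gave 8 higher and 16 lower (12.7% and 25.4%, beside 14.2% and 10.5% of all tested genes). Without control replicate 1 the counts were 3 and 11 (2.22% of all tested genes were then higher and 5.23% lower), and without control replicate 2 they were 6 and 11 (3.95% and 6.47%). Without AMH replicate 1 they were 13 and 15 (15.7% and 14.1%), and without AMH replicate 2 they were 8 and 22 (14.6% and 15.3%), with a median of -0.33.

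**Figure D1:**
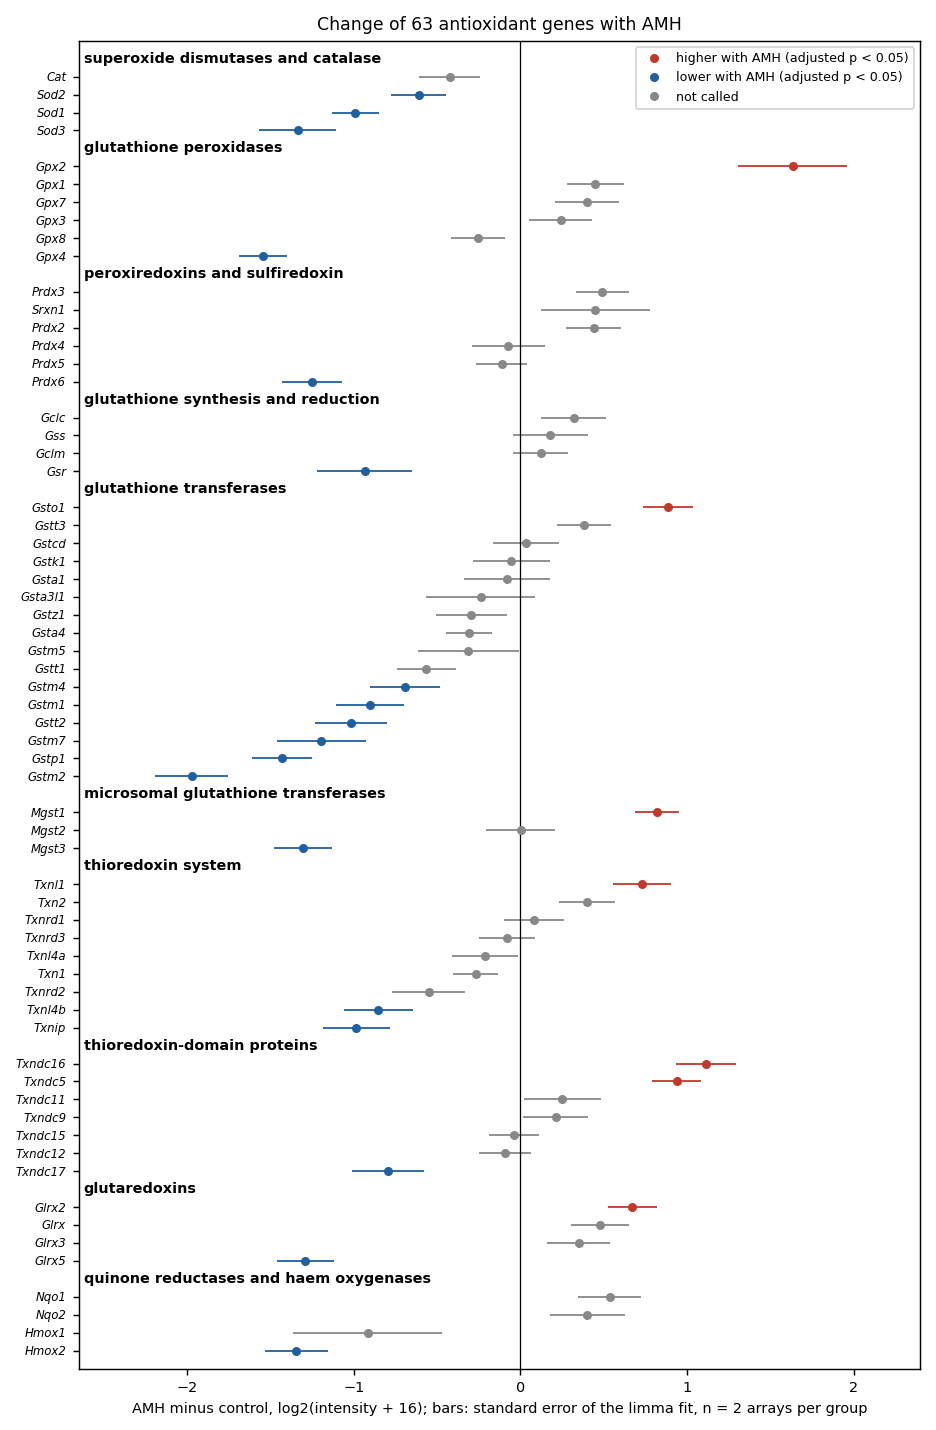
Change of the 63 tested antioxidant genes, AMH minus control in log2(intensity + 16), by role; points are limma estimates, bars their standard errors (n = 2 arrays per group), red genes higher, blue genes lower and grey genes not called. The 18 blue genes occur in every role, while the 7 red genes include no dismutase, peroxiredoxin, quinone reductase or haem oxygenase and no gene of glutathione synthesis.

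**Figure D2:**
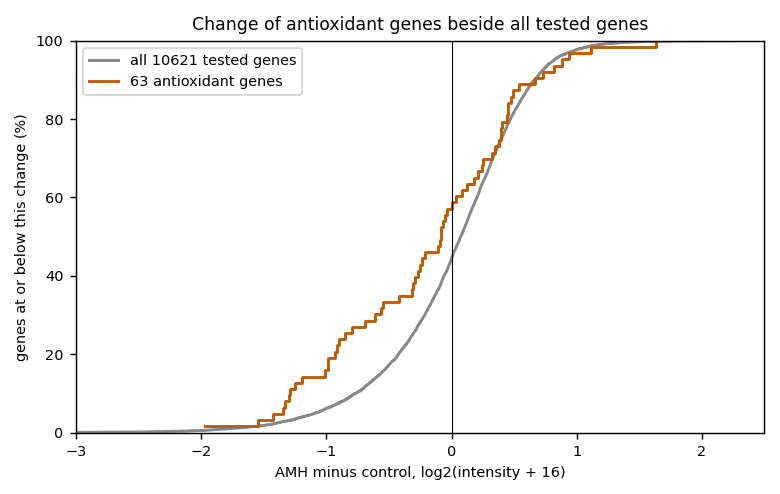
Percent of genes at or below each change, AMH minus control in log2(intensity + 16), for the 63 tested antioxidant genes and for all 10621 tested genes. The antioxidant curve lies above the other on the left, where falls are plotted, and close to it on the right; the medians are -0.08 and 0.07.

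The enzymes that remove superoxide fell together. All 3 superoxide dismutase genes were lower with AMH and catalase was not called, so that 3 of 4 genes of this role were called lower (75%, beside 11.9% of all tested genes). Sod1, the cytosolic copper-zinc enzyme, had intensities of 3561.9 and 3369.4 in control and 1865.8 and 1615.9 with AMH. Both AMH arrays thus lay well below both control arrays, a change of -0.99 ± 0.14 (1.99-fold lower, adjusted p = 0.00313). Sod3, the secreted enzyme, went from 79.6 and 90 to 24.1 and 23.7, a change of -1.34 ± 0.23 (adjusted p = 0.0066). With AMH it was dimmer than the filter level of 27.8, and with 64 added in place of 16 the estimate was -0.76. Sod2, the manganese enzyme of the mitochondrial matrix, changed least of the 3, from 927.5 and 876.5 to 519.5 and 659.6 (-0.61 ± 0.17, adjusted p = 0.0336). The Sod2 call was lost with no filter (adjusted p = 0.0578), without an intensity trend (0.0787), with the replicate block (0.0511) and without control replicate 1 (0.221) or 2 (0.14), within a range of 0.00338 to 0.221 over all alternatives. Cat, which splits hydrogen peroxide in peroxisomes, read 272.3 and 263.6 in control and 172.8 and 221.2 with AMH (-0.42 ± 0.18, adjusted p = 0.136). The groups did not overlap for Cat, and it passed with hybridization control scaling (-0.87, adjusted p = 0.028) and without AMH replicate 2 (-0.59, adjusted p = 0.036; 0.028 to 0.46 over all alternatives).

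The glutathione peroxidases split, with Gpx2 the largest rise of all 63 genes and Gpx4 the second largest fall. Gpx2, a peroxidase best known from gut epithelium, had 91 and 224.5 in control and 488.6 and 475 with AMH. The control arrays differed more than 2-fold and the AMH arrays hardly at all, and the change was 1.63 ± 0.33 (3.1-fold higher, adjusted p = 0.0114). Without control replicate 1 the rise was 1.05 and without control replicate 2 it was 2.22. Gpx4, which reduces lipid peroxides inside membranes and guards against ferroptosis, had 1056.5 and 1080.1 in control and 365 and 346.4 with AMH, with no overlap and a narrow spread in both groups (-1.54 ± 0.15, 2.92-fold lower, adjusted p = 0.000626). Both calls held under each of the 14 alternatives, as did the directions. Gpx1, the abundant cytosolic enzyme, had 1058 and 1203.1 in control and 1347.9 and 1770.1 with AMH (0.45 ± 0.17, adjusted p = 0.0973) and passed only without AMH replicate 1 (0.64, adjusted p = 0.00832; up to 0.945 over all alternatives). With hybridization control scaling its sign turned (-0.03). The secreted Gpx3 (0.24 ± 0.19) and the endoplasmic reticulum peroxidases Gpx7 (0.40 ± 0.19) and Gpx8 (-0.25 ± 0.16) were not called. Gpx6 was too dim to be tested, at 1.6 to 22.6 on the 4 arrays.

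Among the peroxiredoxins, which reduce peroxide through a reactive cysteine, Prdx6 was called among the probe sets of a single symbol, 1 of 6 genes with Srxn1 (16.7%, beside 23.0% of all tested genes). A probe set that lists 2 peroxiredoxin symbols, and so is not assigned to a gene, was called lower too, from 3103.2 and 2925.4 to 1551 and 1955.9 (-0.79 ± 0.16, adjusted p = 0.0109). Prdx6 fell from 536.9 and 505.6 to 182.6 and 239.7 (-1.25 ± 0.18, adjusted p = 0.00327). Prdx6 is the form that uses glutathione rather than thioredoxin and also acts on phospholipid peroxides. The mitochondrial Prdx3 read 569.1 and 654.1 in control and 792.7 and 942.8 with AMH (0.49 ± 0.16, adjusted p = 0.0623), and Prdx2, a cytosolic form abundant in red blood cells, read 1402 and 1193.8 in control and 1573.9 and 1971.1 with AMH (0.44 ± 0.17, adjusted p = 0.0922). For both genes every AMH value was above every control value, but the change missed the threshold, and with hybridization control scaling it was 0.02 and -0.04. Both passed without AMH replicate 1, at adjusted p = 0.0157 for Prdx3 and 0.0123 for Prdx2, and Prdx3 also passed with median centring (0.0426). Their ranges over all alternatives ran up to 0.964 and 0.93. Prdx4 of the endoplasmic reticulum read 1392.7 and 1040.6 in control and 938.9 and 1395.4 with AMH (-0.07 ± 0.22), and Prdx5 read 446.8 and 493.6, then 419.7 and 447.1 (-0.11 ± 0.15), so that both had overlapping groups. Srxn1, which repairs overoxidised peroxiredoxins, had control values far apart (31.3 and 76.2) against 84 and 65.2 with AMH, and was not called (0.45 ± 0.33). The summed red blood cell markers, given above, were lower on both AMH arrays. Hbb was the brightest of them in control (1362 and 1166.8). The part of these markers in the Prdx2 values was not tested.

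The genes that make glutathione were not called, and the gene that restores it fell near the limit of detection. Gclc, the catalytic subunit of the rate-limiting glutamate-cysteine ligase, read 106.8 and 127.4 in control and 157.3 and 142.2 with AMH (0.32 ± 0.19). Its modifier subunit Gclm read 279.8 and 272.9, then 320.2 and 284.4 (0.12 ± 0.16). Glutathione synthetase, Gss, read 133.2 and 92.4, then 118.1 and 138.6 (0.18 ± 0.22). The groups overlapped for Gss and were narrowly apart for the other two. All 3 turned negative with hybridization control scaling (-0.11, -0.34 and -0.25). Gsr, glutathione reductase, had 51.6 and 38.3 in control and 11.8 and 20.1 with AMH. Its groups did not overlap and it was called (-0.94 ± 0.28, adjusted p = 0.0481), but with AMH it was dimmer than the filter level of 27.8, and the fall was -0.45 with 64 added. The call was lost in 9 of 13 alternatives, among them median centring (0.0578), the replicate block (0.0684) and leaving out control replicate 1 (0.311), control replicate 2 (0.121) or AMH replicate 1 (0.0873), within a range of 0.0126 to 0.311.

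The soluble glutathione transferases gave 6 falls and 1 rise among 16 tested genes (37.5% and 6.25%, beside 11.9% and 11.1% of all tested genes), and 13 of the 16 estimates were negative. Without control replicate 1 there were 2 falls, and without control replicate 2 there were 3. The shares of all tested genes without either array are given above. The median change was -0.31 (-0.25 with median centring and -0.79 with hybridization control scaling, and -0.51 without control replicate 2 or AMH replicate 2), beside 0.07 over all tested genes. Gstm2 of the mu class fell furthest of all 63 antioxidant genes, from 501.5 and 334.6 to 87.7 and 97.5 (-1.97 ± 0.22, 3.93-fold lower, adjusted p = 0.00117). Gstp1, the pi class enzyme, was bright in control at 2384.8 and 1909.1 and read 889.2 and 688.5 with AMH (-1.43 ± 0.18, 2.69-fold lower, adjusted p = 0.00184). Both groups were clearly apart for these genes, and both calls held under each of the 14 alternatives.

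All 5 tested mu class genes had negative estimates and 4 were called lower (80%, beside 11.9% of all tested genes). The class was set apart after the values had been seen, so this count has no test. Beside Gstm2, Gstm7 went from 193.1 and 166 to 49.8 and 94.4 (-1.19 ± 0.27, adjusted p = 0.017), Gstm1 from 233.8 and 245.8 to 102.1 and 142.3 (-0.90 ± 0.20, adjusted p = 0.0174) and Gstm4 from 95.7 and 92.2 to 49.4 and 54.6 (-0.69 ± 0.21, adjusted p = 0.0489). Gstm5 was not called, with AMH arrays at 423 and 911.7 on either side of the control arrays at 826.7 and 729.6. Mu class genes lie in a cluster and their transcripts are alike, and whether probes of 1 gene also bind another was not tested. Without control replicate 1 the calls of Gstm7 (adjusted p = 0.074), Gstm1 (0.0799, and 0.0888 without control replicate 2) and Gstm4 (0.276) were lost. That of Gstm4 was lost in 7 of 13 alternatives, among them median centring (0.0632) and leaving out control replicate 2 (0.218) or AMH replicate 1 (0.0702). The range of adjusted p was 0.000809 to 0.074 for Gstm7, 0.00255 to 0.0888 for Gstm1 and 0.00884 to 0.276 for Gstm4.

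Of the theta class, Gstt2 fell at both of its probe sets (-1.02 ± 0.21 and -0.91 ± 0.27). The brighter read 143.4 and 132.4 in control and 69.5 and 51.7 with AMH (adjusted p = 0.0138, lost without control replicate 1 at 0.101 and without control replicate 2 at 0.0556, within 0.00187 to 0.101). Gstt1 (-0.56 ± 0.18, adjusted p = 0.0536) and Gstt3 (988.1 and 886.5, then 1092.6 and 1370, 0.38 ± 0.16) were not called, although Gstt3 passed without AMH replicate 1 (adjusted p = 0.0177; up to 0.817). Gsto1, an omega class enzyme that reduces mixed disulfides and dehydroascorbate, was the 1 transferase called higher, from 385.7 and 419.8 to 775.4 and 737 (0.88 ± 0.15, adjusted p = 0.00618). Its call was lost with hybridization control scaling (0.41, adjusted p = 0.183) and without control replicate 1 (0.0634; lowest over all alternatives 0.00231). The alpha class genes Gsta1 (-0.08 ± 0.26), Gsta3l1 (-0.24 ± 0.33) and Gsta4 (-0.31 ± 0.14) were not called, nor were Gstk1 (-0.05 ± 0.23), Gstz1 (-0.29 ± 0.21) and Gstcd (0.04 ± 0.20). The probe sets of Gsta3, Gstm3, Gstm6l, Gsto2 and Gstp3 were too dim to be tested, none above 47.4 on any array.

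The membrane-bound transferases moved apart. Mgst1, abundant in the endoplasmic reticulum and outer mitochondrial membrane, rose from 2548 and 2659.1 to 4778.3 and 4423.4 (0.82 ± 0.13, adjusted p = 0.00523). Mgst3 fell from 296.1 and 290.8 to 112.5 and 106.3 (-1.30 ± 0.17, adjusted p = 0.00227). In both genes the 2 arrays of a group lay close together, while Mgst2 read 752 and 655.7 in control and 863.7 and 571.6 with AMH (0.00 ± 0.21). The fall of Mgst3 held under each of the 14 alternatives. The rise of Mgst1 was lost with hybridization control scaling (0.33, adjusted p = 0.278) and without control replicate 1 (0.0609; lowest over all alternatives 0.000445).

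**Figure D3:**
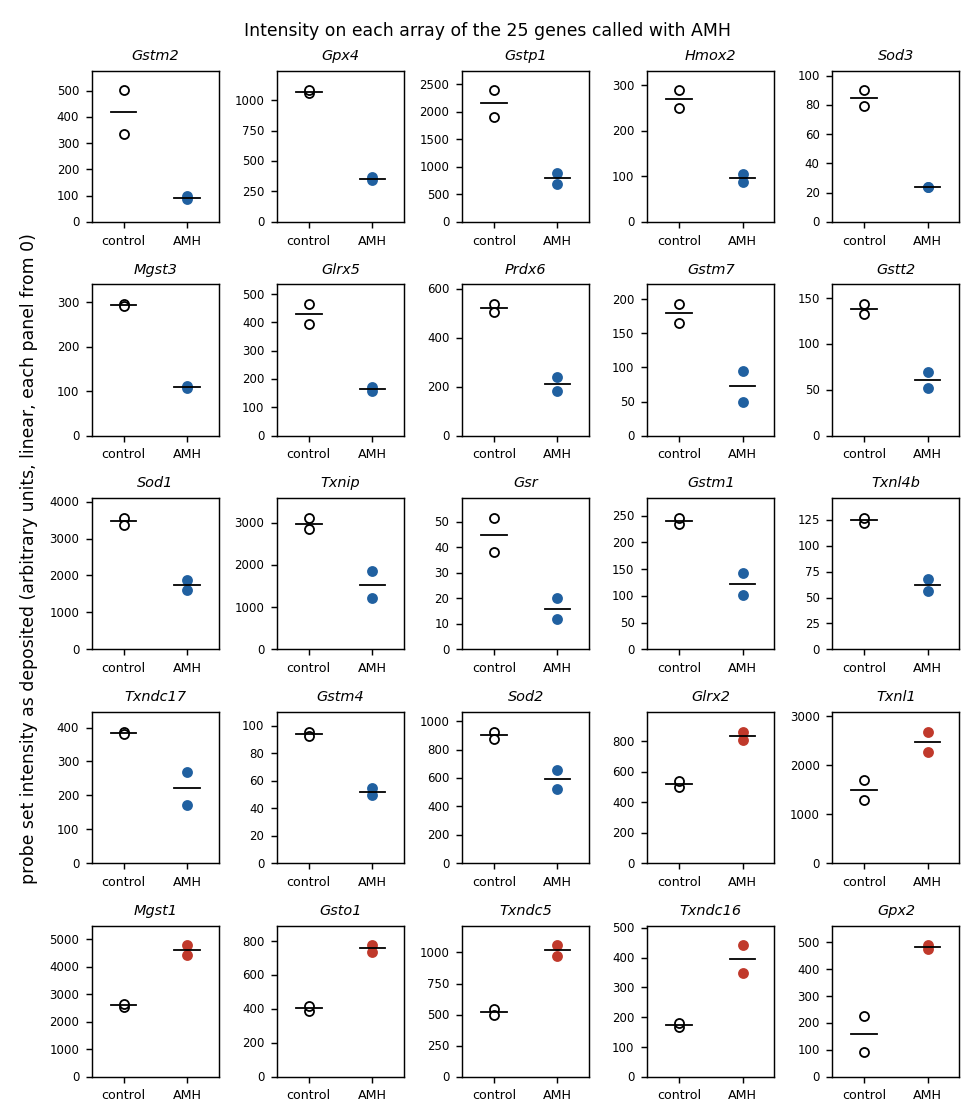
Deposited probe set intensity (linear, each panel from 0) on each of the 4 arrays for the 25 called genes, ordered from the largest fall to the largest rise; open points are control arrays, filled points AMH arrays and lines group means. The groups are separate in all 25 panels; control arrays spread widely for Gpx2 and Gstm2, and AMH arrays for Gstm7 and Txndc17.

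Antioxidant response elements, the sites NRF2 is known to bind, share a core that was searched as TGACNNNGC on both strands of the promoters, 300 bases from 250 before the gene start (RefSeq, GRCr8). Promoters were found for 59 of the 70 genes, and 18 of the 59 (30.5%) carried the core in at least 1 promoter, beside 13.1% of all 27457 genes of that table. It was present in 2 of 7 genes called higher, 6 of 13 called lower and 9 of 34 not called. The stretches below come from called genes of both directions, with the core or its reverse complement in capitals, and they end before the gene start. In Gstp1 the core also contains TGACTCA, a motif of AP-1. A match is a description of the letters and not a measured site.
Gpx2 (higher; chr6:101230034-101230076, minus strand): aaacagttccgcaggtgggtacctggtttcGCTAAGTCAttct
Txndc5 (higher; chr17:26495415-26495466, plus strand): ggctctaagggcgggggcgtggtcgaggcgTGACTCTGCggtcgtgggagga
Gstm7 (lower; chr2:198260320-198260363, minus strand): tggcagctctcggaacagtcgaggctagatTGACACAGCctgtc
Gstp1 (lower; chr1:210769738-210769796, minus strand): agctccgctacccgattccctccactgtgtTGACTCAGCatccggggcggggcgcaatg
Hmox2 (lower; chr10:11337679-11337737, minus strand): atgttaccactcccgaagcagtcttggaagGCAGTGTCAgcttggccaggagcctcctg
Sod2 (lower; chr1:50050175-50050233, minus strand): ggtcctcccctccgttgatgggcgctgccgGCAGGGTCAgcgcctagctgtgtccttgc

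Thioredoxin itself and its reductases were not called, while its inhibitor fell. Txn1, the cytosolic thioredoxin, had 4188.8 and 4479.8 in control and 3432.7 and 3761.9 with AMH (-0.27 ± 0.13, adjusted p = 0.187). The AMH arrays were below the control arrays, but the difference passed only with hybridization control scaling (-0.75, adjusted p = 0.0354) and without AMH replicate 2 (-0.33, adjusted p = 0.0426), and quantile normalization turned its sign (0.06, adjusted p = 0.761). The mitochondrial Txn2 read 298.8 and 266.7 in control and 355.2 and 400.7 with AMH (0.40 ± 0.17). Of the reductases, the cytosolic Txnrd1 read 263.5 and 335.8, then 325.3 and 306.3 (0.08 ± 0.18), and the mitochondrial Txnrd2 68.3 and 70.7, then 41.7 and 43 (-0.55 ± 0.22). None of these was called by limma, nor was Txnrd3 (-0.08 ± 0.17). A dimmer probe set of Txnrd1 was called lower (-0.72 ± 0.20, limma adjusted p = 0.0381). Txnrd2 passed with hybridization control scaling alone (-0.92, adjusted p = 0.018; up to 0.406 over all alternatives). Txnip, which binds thioredoxin and blocks it and whose transcription follows glucose, fell from 2841.2 and 3116 to 1847.7 and 1210.2 (-0.98 ± 0.20, adjusted p = 0.012) and held under each of the 14 alternatives. Txnl4b, a relative of a spliceosome protein, fell from 122.3 and 127.1 to 56.2 and 68 (-0.85 ± 0.21, adjusted p = 0.0225, lost without control replicate 1 or 2 at 0.129 and 0.138; lowest 0.00452), while its relative Txnl4a gave -0.21 ± 0.20. Txnl1, a thioredoxin-like protein of the proteasome, read 1292.5 and 1701.2 in control and 2687.6 and 2264.5 with AMH (0.73 ± 0.17, adjusted p = 0.0219). Its call was lost in 5 of 14 alternatives, among them leaving out control replicate 1 (0.224), and the mean over its probe sets gave 0.21 (adjusted p = 0.408, within 0.00418 to 0.433).

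Of 7 tested genes named for a thioredoxin domain, 2 rose and 1 fell (28.6% and 14.3%, beside 11.1% and 11.9% of all tested genes). Txndc16 rose from 166.1 and 180.2 to 349.7 and 442 (1.11 ± 0.18, adjusted p = 0.00532) and Txndc5, a disulfide isomerase, from 547.6 and 498.3 to 974.7 and 1058.1 (0.94 ± 0.15, adjusted p = 0.00479). Every AMH value exceeded every control value by a wide margin in both, and both calls were lost in 1 alternative, hybridization control scaling (0.66, adjusted p = 0.076, and 0.46, adjusted p = 0.172; lowest over all alternatives 0.00131 and 0.00162). Txndc17, a cytosolic reductase, fell from 388.2 and 381.2 to 171.8 and 268.9 (-0.79 ± 0.22, adjusted p = 0.0348). Without AMH replicate 1 the fall of Txndc17 was -0.49 (adjusted p = 0.0502), and its call was lost in 5 of 14 alternatives (0.00151 to 0.138), among them leaving out control replicate 1 (0.138) or 2 (0.107). Txndc9, Txndc11, Txndc12 and Txndc15 were not called, with changes from -0.09 ± 0.16 for Txndc12 to 0.25 ± 0.23 for Txndc11.

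Glrx2 and Glrx5, the glutaredoxins of mitochondria, were called, in opposite directions. Glrx5, which passes iron-sulfur clusters on to other proteins, fell from 464.6 and 392.5 to 158.7 and 171.9 (-1.29 ± 0.17, adjusted p = 0.00235) and held under each of the 14 alternatives. Glrx2, which removes glutathione from proteins, rose from 500.9 and 538.2 to 863.9 and 808.7 (0.67 ± 0.15, adjusted p = 0.0159). The Glrx2 call was lost with hybridization control scaling (0.20, adjusted p = 0.533), without control replicate 1 (0.162) or 2 (0.0877) and in the mean over its probe sets (0.51, adjusted p = 0.0891; lowest over all alternatives 0.00634). Glrx, the cytosolic form, read 178.6 and 159.8 in control and 247.9 and 235.5 with AMH (0.48 ± 0.17, limma adjusted p = 0.0836). Neither it nor Glrx3 (0.35 ± 0.19) was called at the brightest probe set. A dimmer probe set of Glrx was called lower (-1.16 ± 0.23, limma adjusted p = 0.0114).

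Nqo1, the textbook NRF2 target that reduces quinones, had 143 and 167.3 in control and 252.9 and 211.7 with AMH (0.54 ± 0.19, adjusted p = 0.0758). Its groups did not overlap, but it passed only without AMH replicate 2 (adjusted p = 0.0347; up to 0.796), and its relative Nqo2 gave 0.40 ± 0.22. Hmox2, the constitutive haem oxygenase, fell from 250.7 and 289.1 to 105.1 and 88.2 (-1.34 ± 0.19, adjusted p = 0.00295) and held under each of the 14 alternatives. Hmox1, the form that haem and stress induce, had control arrays at 71.8 and 251.7 and AMH arrays at 73.2 and 57.9. Its control arrays lay far apart and it was not called (-0.92 ± 0.44, adjusted p = 0.175), although it passed with hybridization control scaling (-1.32, adjusted p = 0.036) and without control replicate 1 it read -1.72 (adjusted p = 0.00357) and without control replicate 2 -0.11 (up to 0.886 over all alternatives). Hbb, haemoglobin beta, read 1362 and 1166.8 in the same control pools and 89.4 and 55.3 with AMH. It was 1 of 2 red blood cell markers called lower among 4 tested. Gypc read 358 and 270.8 in control and 277.2 and 403 with AMH, and Alas2 was not called. The part of these markers in the haem oxygenase values was not tested. The pseudogene Hmox2-ps1 was too dim to be tested.

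Where a gene had 2 tested probe sets, these often disagreed. Of 6 such genes, 4 had estimates of opposite sign, and in all 4 the dimmer probe set was the lower one. How often this occurs over all tested genes was not counted, so it cannot be called particular to these genes. For Glrx the dimmer probe set was called lower (-1.16 ± 0.23, adjusted p = 0.0114), and for Txnrd1 likewise (-0.72 ± 0.20, adjusted p = 0.0381), while the brighter ones gave 0.48 and 0.08. For Gclc the pair gave 0.32 and -0.76 ± 0.25 (adjusted p = 0.0614) and for Txnl1 0.73 and -0.31 ± 0.16 (adjusted p = 0.2). Glrx2 was positive at both (0.67 and 0.35 ± 0.23), and Gstt2 was the 1 gene called at both. The GAPDH control probe sets of the 5′ and 3′ end differed between the groups too, as given above, and the part of probe set position in these values was not tested.

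**Figure D4:**
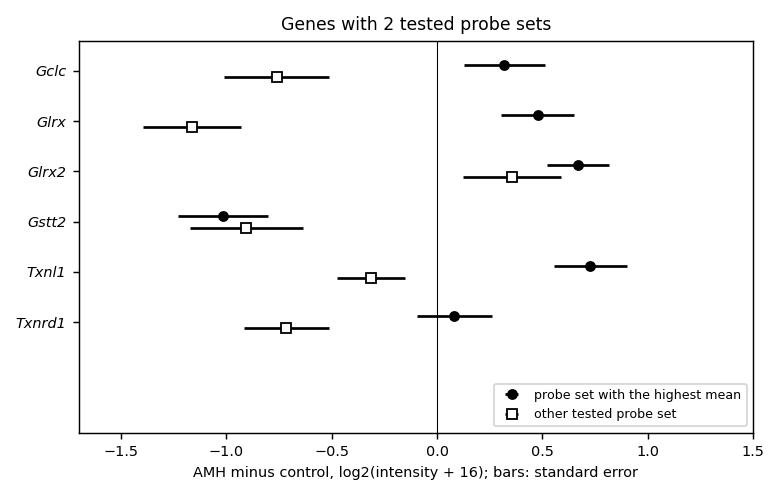
Change (AMH minus control, log2(intensity + 16)) at both tested probe sets of 6 antioxidant genes; filled circles are the probe sets with the highest mean, open squares the others, bars standard errors (n = 2 arrays per group). Circle and square lie on opposite sides of 0 for Gclc, Glrx, Txnl1 and Txnrd1.

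The genes were also grouped by features that the selection did not use, from textbook knowledge and after their values had been seen, so these counts have no test. Selenoproteins, which carry selenocysteine in place of a cysteine, went both ways: of 15 tested, Gpx2 and Selenok were higher and Gpx4, Msrb1 and Selenow lower (33.3% called, beside 23.0% of all tested genes). Of 15 tested genes on a short list of NRF2 targets, 0 were higher and 2 lower by limma, Gsr and Sqstm1 (13.3% called, beside the same 23.0%). The list holds no glutathione transferase, glutathione peroxidase or peroxiredoxin, so its share does not describe NRF2 targets as a whole. At an unadjusted limma p under 0.05, 4 of the 15 were higher (Nqo1, Taldo1, Me1 and Mafg) and the same 2 lower. The share of all tested genes at this looser limit was not counted, so no excess can be read from it. Nqo1, Gclc, Gclm, Txnrd1, Srxn1, Hmox1, Slc7a11, Pgd, Tkt, Taldo1, Me1, Abcc1 and Mafg were not called.

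Genes that support these enzymes without belonging to their families were measured as a separate list of NRF2 partners, NADPH sources, glutathione turnover, selenoproteins, metal storage and repair genes. Of 55 listed genes 51 had a probe set and 45 were tested, of which 7 were higher (15.6%) and 8 lower (17.8%), beside 11.1% and 11.9% of all tested genes. With hybridization control scaling 0 were higher and 13 lower, beside 0.885% and 24.4% of all tested genes. Without control replicate 1 there were 1 and 4, without control replicate 2 there were 2 and 4, and without AMH replicate 1 there were 11 and 8. The shares of all tested genes without each of these arrays are given above. The median change was 0.04. Nfe2l2, the gene of NRF2, had 1223.4 and 1522.3 in control and 1746.5 and 1929 with AMH and was not called (0.42 ± 0.16, adjusted p = 0.0905), and neither was its inhibitor Keap1 (-0.15 ± 0.16).

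Idh2 and Nnt, listed as sources of NADPH in mitochondria, rose. Idh2, the mitochondrial isocitrate dehydrogenase, went from 866.5 and 927 to 1819.5 and 1775.6 (0.99 ± 0.14, adjusted p = 0.00283), and Nnt, the transhydrogenase of the inner membrane, from 492.1 and 488.7 to 762.3 and 1001 (0.81 ± 0.17, adjusted p = 0.0138). With hybridization control scaling both calls were lost (Idh2 0.51, adjusted p = 0.106; Nnt 0.34, adjusted p = 0.361; lowest over all alternatives 0.000556 and 0.0014). The Nnt call was also lost without control replicate 1 (0.0746) or 2 (0.0661). In the cytosol Idh1 rose (0.61 ± 0.18, adjusted p = 0.0437), while Me1 (0.58 ± 0.19), Taldo1 (0.49 ± 0.16), Tkt (-0.16 ± 0.15) and Pgd (-0.32 ± 0.17) were not called. Akr1b8, an aldose reductase relative, went from 281.3 and 406.2 to 684.7 and 613.8 (0.91 ± 0.20, adjusted p = 0.0154) and Selenok of the endoplasmic reticulum from 718.7 and 762.7 to 1079.7 and 1277.7 (0.65 ± 0.15, adjusted p = 0.0196). Both were lost with hybridization control scaling (0.183 and 0.621; lowest 0.00768 and 0.00368). The Akr1b8 call was also lost without control replicate 1 (0.148), and that of Selenok without an intensity trend (0.0574) and without control replicate 1 (0.166) or 2 (0.0976).

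Selenow, a small selenoprotein, fell furthest in the support list, from 161.1 and 145.5 to 18 and 16.1 (-2.36 ± 0.22, adjusted p = 0.00061). Both AMH arrays read it under the filter level of 27.8, and with 64 added the fall was -1.42. Sqstm1 (p62), which binds Keap1 and is itself an NRF2 target, fell from 634.8 and 728.8 to 270.3 and 235.3 (-1.38 ± 0.16, adjusted p = 0.00158). Mt2A, a metallothionein, changed by -1.11 ± 0.16 (adjusted p = 0.00317), from 560.7 and 639.3 to 260.3 and 276.1. Of the methionine sulfoxide reductases, Msrb2 of mitochondria fell from 165.9 and 166.2 to 69.7 and 74.2 (-1.05 ± 0.19, adjusted p = 0.00791), Msrb1 fell (-0.71 ± 0.18, adjusted p = 0.0254) and Msrb3 was not called (0.04 ± 0.17). The calls of Selenow, Sqstm1 and Mt2A held under each alternative in which they were tested, and that of Msrb2 was lost without control replicate 1 (0.0584; lowest 0.00166). Outside the rule for named genes and chosen after their values were seen, Ggt5 (1.08 ± 0.28) and Chac2 (0.74 ± 0.20) of glutathione breakdown were also higher. Ggt5 read 18.6 and 17.9 in control and 71.2 and 44.2 with AMH. Its control values lie under the filter level of 27.8, so it passed the filter only through its AMH values. Chosen likewise, Ephx1 (-1.15 ± 0.22), Sesn2 (-0.98 ± 0.21) and the exporter Abcc4 (-0.75 ± 0.18) were lower. The cystine carrier gene Slc7a11, which feeds glutathione synthesis, gave 0.00 ± 0.24.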

How the data were processed

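The authors deposited linear intensities, 31099 probe sets on 4 arrays, per the labels' protocols hybridised by standard Affymetrix procedures, with no summarising software named. Trimmed by 2 percent at each end, every array averages 125.03, so the deposited intensities share 1 scale. The number of arrays limits the precision. Sample titles gave group and replicate. Intensities were turned into log2(intensity + 16). Left out were 57 manufacturer controls and, of all others, the dimmest 40 percent by mean (mean log2 below 5.45, intensity about 27.8), which left 18625. The 2 groups were fitted by limma 3.58.1 under R 4.3.3, using lmFit and eBayes with intensity trend. The test was two-sided, p-values were adjusted by Benjamini-Hochberg over all 18625, and 0.05 was the limit. There are 2 residual and 6.33 prior degrees of freedom and with 2 arrays against 2 no permutation can give a two-sided p below 0.333, so p-values rest on spread pooled over probe sets and measure that between these pools of ovaries. The fit was also run on data simulated from its own fitted spread, which cannot show whether that spread holds for these arrays.

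Names came from the platform annotation (20832 probe sets with 1 symbol, 436 with several, 9831 with none listed). The members and lists were chosen with earlier results of these data known. Members past the threshold (in transferases and thioredoxin-domain genes the 3 highest and 3 lowest), a fixed set of core members and, of the support and oxidant source lists, the 4 highest and 4 lowest called by moderated statistic are named with full values; other members are named outside this rule. The alternatives were other constants (4 and 64), other filters (none and 60 percent), other scalings (median, quantile, hybridization controls), no intensity trend, the replicate block, each array left out, and the mean over a gene's probe sets. Promoter sequences came from RefSeq (GRCr8).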

Additional observations from a re-analysis of the deposited data

How the results depend on the processing

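Of the 25 called antioxidant genes, 11 (1 higher, 10 lower) kept their call and direction in every alternative in which they were tested, 14 lost the call in at least 1, and 0 changed sign. With hybridization control scaling 1 was called higher and 24 lower (median -0.55), and 146 probe sets were higher and 4935 lower. Redox support genes then gave 0 and 13 and oxidant source genes 0 and 5, beside 0.885% and 24.4% of all tested genes. With no filter 1010 probe sets, 4 redox support and 0 oxidant source genes were higher and 1 oxidant source gene lower, without an intensity trend 989 probe sets and 1 oxidant source gene were higher and 1 lower, with the lowest 60 percent left out 1 oxidant source gene was higher and with quantile normalization 4. The replicate block gave 7 antioxidant genes higher and 15 lower, beside 9.15% and 10.9% of all tested genes, and 1 oxidant source gene higher. It ended the calls of Gsr (limma adjusted p = 0.0684), Gstm4 (0.0684), Sod2 (0.0511) and Cybb (0.0517). Same-numbered arrays did not deviate together (r = -0.000816). This value rests on a single difference in each group, so it cannot show whether the pools were paired. Leaving out 1 array at a time gave 334 to 2245 probe sets higher and 1047 to 2886 lower, 3 to 13 antioxidant genes higher and 11 to 22 lower (median -0.33 to -0.010), 1 to 11 redox support genes higher and 4 to 10 lower, and 0 to 3 oxidant source genes higher and 1 to 4 lower. In such fits the residual spread comes from the group that still has 2 arrays, and the lone array is assumed to vary like it.

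Estimates of uncalled genes that changed sign had these values. With hybridization control scaling they were -0.11 for Gclc, -0.34 for Gclm, -0.25 for Gss, -0.030 for Gpx1, -0.039 for Prdx2, -0.063 for Txn2, -0.38 for Txnrd1, -0.38 for Gstcd, -0.10 for Gstt3, -0.47 for Mgst2 and -0.14 for Txndc11. In the mean over probe sets they were -0.22 for Gclc, -0.32 for Txnrd1 and -0.34 for Glrx, with quantile normalization 0.062 for Txn1 and -0.052 for Mgst2, and with median centring 0.029 for Txndc15. With 1 array left out, Gss ran from -0.051 to 0.41, Prdx4 from -0.35 to 0.21, Txnrd1 from -0.085 to 0.25, Srxn1 from -0.033 to 0.93, Gstcd from -0.033 to 0.11, Mgst2 from -0.29 to 0.29, Txndc12 from -0.21 to 0.021 and Txndc15 from -0.13 to 0.059. The cause was not tested. Signal over background limits Gsr, Sod3 and Selenow, whose AMH values lie below the filter level, and Ggt5, whose control values do.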

Other observations

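Genes of enzymes that produce oxidants, a separate list, were few and moved in both directions. Of 31 listed genes 25 had a probe set and 16 were tested, and 2 were higher and 3 lower with AMH (12.5% and 18.8%, beside 11.1% and 11.9% of all tested genes), with a median change of 0.12. Without control replicate 1 there were 0 higher and 1 lower, and without control replicate 2 there were 1 and 1. The shares of all tested genes without either array are given above. Xdh, xanthine dehydrogenase, read 244.4 and 674.7 in control and 1050.3 and 1183.2 with AMH (1.41 ± 0.38, limma adjusted p = 0.0313). Its control arrays lay far apart, and without control replicate 1 the change was 0.71 (adjusted p = 0.105). The Xdh call was lost in 4 of 13 alternatives, also with no filter (0.0679), with hybridization control scaling (0.0854) and without an intensity trend (0.063; lowest 5.94e-05). Cyba and Cybb encode the 2 membrane subunits of the phagocyte NADPH oxidase and went opposite ways. Cyba fell from 402.5 and 324.2 to 114 and 135.2 (-1.43 ± 0.19, limma adjusted p = 0.00229), and Cybb read 37.6 and 36.8 in control and 65.7 and 95.6 with AMH (0.84 ± 0.25, limma adjusted p = 0.0431, lost in 6 of 12 alternatives, 0.0146 to 0.235). The summed macrophage and leukocyte markers were 991.4 to 1192.9 in control and 712.7 and 1973.6 with AMH, and their part in the Cybb and Cyba values was not tested.

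Maoa, the mitochondrial monoamine oxidase, read 458.2 and 468.1 in control and 226.8 and 329.7 with AMH (-0.73 ± 0.20, limma adjusted p = 0.0348, lost in 5 of 13 alternatives, 0.00209 to 0.141). Aox1, aldehyde oxidase, had AMH arrays far apart at 58.9 and 147.6, against 236.9 and 227.6 in control (-1.16 ± 0.33, limma adjusted p = 0.0387), and without AMH replicate 1 the fall was -0.60. The call of Aox1 was lost in 4 of 13 alternatives (0.000287 to 0.0835). Chosen after their values were seen, Nox1 (0.55 ± 0.23), P4hb (0.40 ± 0.15) and Ncf4 (0.88 ± 0.28) were not called, and Nox4 and Nos3 were too dim to be tested.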
